A study of Homo sapiens with 10 samples.

Results

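The 10 genes described here encode a core of the TGF-beta and activin pathway: the ligands TGFB1 and TGFB2 and the activin subunit INHBA, the receptors TGFBR1, TGFBR2, TGFBR3 and ACVR1B, and the signal carriers SMAD2, SMAD3 and SMAD4. They were taken by name, through every probe set that the array annotation assigns to 1 of these symbols alone, which gave 38 of the 54675 probe sets, and they make up 10 of the 19775 genes named on the array. Where a gene had several probe sets, the brightest one, by mean log2 signal over the arrays, stands for it. Expression was measured in LoVo cells, a single established human line from a colon adenocarcinoma, on 10 Affymetrix HG-U133 Plus 2.0 arrays. Of these, 4 held RNA of cells kept for 96 h in medium without serum and with 10 μM asymmetric dimethylarginine (ADMA). ADMA is a methylated arginine that inhibits nitric oxide synthases. Serum-starved cells (SS), kept for 96 h without serum and without ADMA, gave the RNA of 3 arrays. Control cells (C), kept for 96 h in 10% fetal bovine serum, gave that of 3 more. All cells were grown in DMEM with penicillin and streptomycin. The labels call the arrays biological replicates but do not say how the cultures were separated, so each p-value measures the spread between these samples.

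TGF-beta and activin are secreted dimers. Each binds a type II receptor kinase (TGFBR2 for TGF-beta, ACVR2A or ACVR2B for activin), which switches on a type I receptor kinase (TGFBR1 or ACVR1B), and the type I receptor phosphorylates SMAD2 and SMAD3, which enter the nucleus with SMAD4 and change transcription together with other factors. In normal intestinal epithelium the pathway restrains proliferation, and colorectal tumours often lose it. LoVo belongs to the colorectal lines with microsatellite instability, in which the coding sequence of TGFBR2 often carries frameshifts. The arrays measured transcript levels, so neither the protein nor its phosphorylation was seen, and the level of TGFBR2 transcript does not say whether a complete receptor is made. The serum of the control medium is itself a source of TGF-beta protein, which was not measured either.

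The trimmed mean signal was 500.1 on every array, since the authors scaled the arrays, but the median signal was 91.8 to 98.1 with ADMA, 87.4 to 90.6 in SS and 60.6 to 73.1 in C. The control probe sets for 28S ribosomal RNA averaged 671 to 935 with ADMA, 1068 to 1653 in SS and 345 to 429 in C, and the 3' to 5' signal ratio of ACTB, a measure of RNA integrity, was 1.02 to 1.05 with ADMA, 1.13 to 1.23 in SS and 1.01 to 1.08 in C. The groups did not overlap in the 28S signal in any comparison, nor in the ACTB ratio in those with SS, and the part of either in the results was not tested. In RNA of whole cultures, fewer cells of a type and less RNA per cell cannot be told apart. All 12 markers of colon epithelium passed the filter on low signal, with a summed signal of 154085 to 175273 with ADMA, 121684 to 140555 in SS and 84568 to 86057 in C. Of markers of other cells, 4 of 10 for fibroblasts, 1 of 6 for endothelium and 3 of 6 for leukocytes passed. Summed over all markers of a list, passed or not, the signal of the 10 fibroblast markers was 1589 to 1859 with ADMA, 2026 to 2180 in SS and 1835 to 2001 in C, and that of the 6 endothelial markers was 332 to 516 with ADMA, 299 to 464 in SS and 309 to 349 in C. The 6 leukocyte markers summed to 1696 to 2399 with ADMA, 4418 to 5155 in SS and 812 to 1167 in C. This last sum followed LYZ, whose signal ran between 379 and 4534. PTPRC, of leukocytes, CD14, of monocytes, and PDGFRB, of fibroblasts, were below background on all 10 arrays. Besides LYZ, 4 markers of other cells were above it on all 10. These were CD79A (266 to 433), COL1A1 (315 to 492), ACTA2 (723 to 1209) and PECAM1 (143 to 233). Background was set on each array at the 95th percentile of the Bacillus control probe sets, a signal of 35.0 to 70.2.

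Signals are MAS 5.0 intensities on a linear scale. Differences are on the log2 scale, with no further scaling between arrays. Groups were compared with limma over the 12344 genes whose brightest probe set reached a mean signal of 76.2, the median of all probe sets, and all 10 genes were among them. A gene is said to have risen or fallen, or to be called, where it changed 1.2-fold or more with a Benjamini-Hochberg adjusted p, taken over all 12344 genes, under 0.01. The number of arrays limits the precision of each value.

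In serum-starved cells 6 of the 10 genes rose and 2 fell relative to control cells. INHBA, TGFBR2 and SMAD3 rose 2.75- to 3.47-fold, ACVR1B, SMAD2 and SMAD4 rose 1.29- to 1.65-fold, TGFBR1 and TGFBR3 fell, and neither TGF-beta ligand passed the test. Over all genes tested, 30.3% rose and 27.3% fell in the same comparison, so that changes of this kind were common. Of the genes called, 52.6% were higher in SS, and 28% with each array centred on its median. The median log2 difference was 0.46 over the 10 genes and 0.07 over all genes.

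Among the ligands, INHBA, whose dimer is activin A, had signals of 1252, 1319 and 1247 in SS and 386, 442 and 382 in C. All SS arrays were far above all C arrays, and the rise was 1.66 on the log2 scale (standard error 0.09, adjusted p = 5.00e-10), or 3.16-fold. TGFB1, the main TGF-beta of epithelial tumours and their stroma, had signals of 335, 658 and 683 in SS and 596, 672 and 561 in C. SS replicate 1 was low, the other arrays overlapped, and the log2 difference of -0.19 (standard error 0.22, adjusted p = 0.46) did not pass the test. Without SS replicate 1 it was 0.14 (adjusted p = 0.44). TGFB2, an isoform with wide roles in development, had signals of 61.4, 102 and 72.1 in SS and 166, 118 and 171 in C. Every SS array was under every C array, but the difference of -0.96 (standard error 0.36, adjusted p = 0.029) was not called. It was called with quantile normalization (-1.32, adjusted p = 0.0050) and with arrays centred on their medians (-1.35, adjusted p = 0.0015).

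Among the receptors, TGFBR2, the type II receptor of TGF-beta, had signals of 3052, 2656 and 2551 in SS and 1156, 920 and 934 in C, with no overlap and a rise of 1.46 (standard error 0.10, adjusted p = 5.35e-09), or 2.75-fold. ACVR1B, the type I receptor of activin, had 2556, 2212 and 2350 in SS and 1610, 1660 and 1554 in C, and it rose by 0.56 (standard error 0.07, adjusted p = 5.94e-06). The groups were again apart. TGFBR1, the type I receptor of TGF-beta, went the other way, at 2581, 2459 and 2299 in SS and 3266, 3512 and 2977 in C, and fell by 0.41 (standard error 0.07, adjusted p = 0.00014). TGFBR3, or betaglycan, a co-receptor that presents TGF-beta to TGFBR2, had 1225, 1145 and 1101 in SS and 1432, 1548 and 1386 in C. It fell by 0.33 (standard error 0.08, adjusted p = 0.0017), with no overlap, but without C replicate 2 its adjusted p was 0.011 and it was not called. The type II receptor of TGF-beta thus rose while the type I receptor measured by the brightest probe set fell, and the other probe sets of TGFBR1 are given further on.

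Among the SMADs, SMAD3, which binds DNA directly, had the largest rise of the 10 genes. Its signals were 3348, 3212 and 3164 in SS and 854, 957 and 995 in C, a rise of 1.80 (standard error 0.08, adjusted p = 7.45e-11), or 3.47-fold. SMAD2, its close relative and the other receptor substrate, had 4449, 4080 and 4884 in SS and 2432, 2797 and 2885 in C, with a rise of 0.73 (standard error 0.08, adjusted p = 2.32e-06). SMAD4, the partner of both, had 3355, 3381 and 3137 in SS and 2493, 2522 and 2636 in C and rose by 0.37 (standard error 0.07, adjusted p = 0.00021). No SS array overlapped a C array in any SMAD, but the share of all genes set apart in this way was not counted. The smaller rises depend on how the arrays are scaled, since centring each array on its median lowered every log2 difference by 0.39. SMAD4 was then at -0.02, ACVR1B at 0.17 and SMAD2 at 0.34, none of them called, while INHBA, TGFBR2 and SMAD3 were still called higher.

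**Figure D1:**
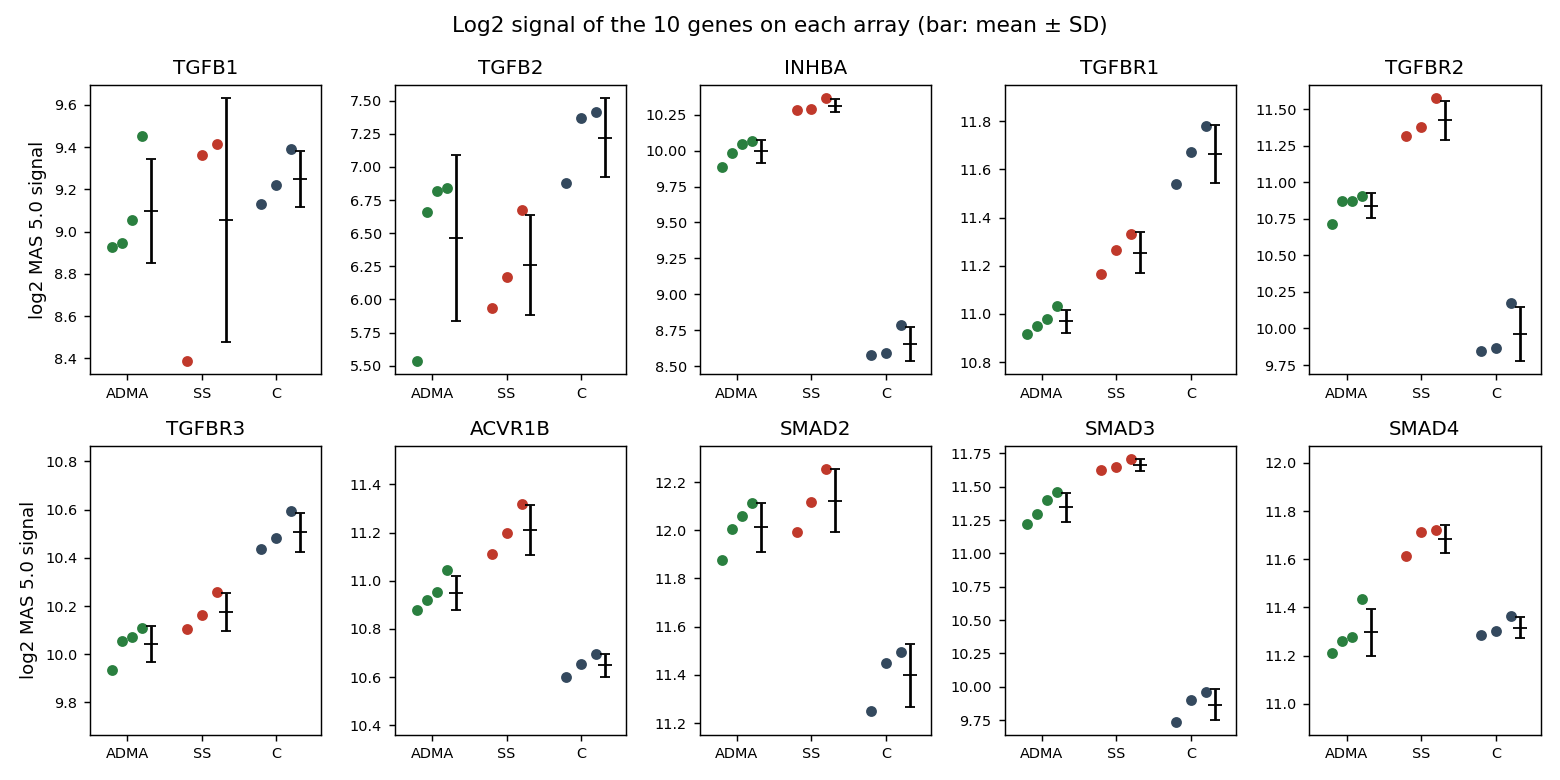
Log2 MAS 5.0 signal (vertical axis) of the 10 genes, 1 panel per gene and 1 point per array, for ADMA-treated (ADMA, n = 4), serum-starved (SS, n = 3) and control cells (C, n = 3), with the mean and SD of each group as a bar beside the points. INHBA, TGFBR2 and SMAD3 are lowest in C and highest in SS, TGFBR1 is lowest with ADMA, and 1 SS array of TGFB1 and 1 ADMA array of TGFB2 lie far below the others of their group.

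With ADMA in the serum-free medium, 5 of the 10 genes fell relative to SS and none rose: TGFBR2, SMAD4, INHBA, SMAD3 and TGFBR1. The falls were small, from 0.28 to 0.58 on the log2 scale. Over all genes 13.8% fell and 15.7% rose. Of the genes called, 53.2% were higher with ADMA, and 30.1% with centred arrays. The median log2 difference was -0.27 over the 10 genes and 0.03 over all genes, and at an unadjusted p under 0.05 again none of the 10 was higher with ADMA. The smaller falls rested on single arrays: 2 of the 10 genes were called without SS replicate 1 and 3 without SS replicate 2 or without ADMA replicate 4, and no more than 5 without any 1 array.

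TGFBR2 had signals of 1874, 1870, 1922 and 1677 with ADMA and 3052, 2656 and 2551 in SS. The groups did not overlap, and it fell by 0.58 (standard error 0.09, adjusted p = 0.00014), to 0.67 of the SS level. SMAD4, at 2771, 2454, 2373 and 2481 with ADMA and 3355, 3381 and 3137 in SS, fell by 0.39 (standard error 0.06, adjusted p = 0.00021). These 2 falls were called without any 1 of the 7 arrays. SMAD3 had 2705, 2515, 2819 and 2389 with ADMA and 3348, 3212 and 3164 in SS and fell by 0.32 (standard error 0.07, adjusted p = 0.0029). Its call was lost without SS replicate 1 or 2 (adjusted p = 0.016 and 0.011) and without ADMA replicate 4 (0.011). INHBA had 1075, 1010, 1056 and 948 with ADMA and 1252, 1319 and 1247 in SS and fell by 0.32 (standard error 0.08, adjusted p = 0.0059). No array of one group reached the other, but the call was lost without any 1 of the 3 SS arrays and without ADMA replicate 2 or 4, at an adjusted p of 0.014 to 0.032. TGFBR1 had 2094, 2017, 1934 and 1981 with ADMA and 2581, 2459 and 2299 in SS and fell by 0.28 (standard error 0.07, adjusted p = 0.0034). It was not called without SS replicate 1 or 2 or without ADMA replicate 3 (adjusted p = 0.021, 0.015 and 0.011), nor with quantile normalization, where its difference of -0.26 was under the fold threshold.

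ACVR1B lay just under the fold threshold. Its signals were 1982, 2111, 1882 and 1937 with ADMA and 2556, 2212 and 2350 in SS, without overlap, and its log2 difference was -0.26 (standard error 0.07, adjusted p = 0.0056). Centring, which lowered each difference between ADMA and SS by 0.12, put it at -0.38 with a call (adjusted p = 0.0067). TGFBR3 had 1065, 979, 1104 and 1077 with ADMA and 1225, 1145 and 1101 in SS, with a difference of -0.13 (adjusted p = 0.17). SMAD2 had 3760, 4108, 4265 and 4427 with ADMA and 4449, 4080 and 4884 in SS, with a difference of -0.11 (adjusted p = 0.29). The ligands TGFB1, at 493, 487, 702 and 533 with ADMA, and TGFB2, at 46.4, 115, 101 and 113, differed from SS by 0.04 (standard error 0.21) and 0.20 (standard error 0.34), and both groups overlapped. ADMA replicate 1 was the low array of TGFB2 and lay under its background level.

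Set against control cells, ADMA-treated cells had 5 of the 10 genes higher and 2 lower, where 26.6% of all genes were higher and 23.2% lower. Of the genes called, 53.5% were higher with ADMA, and 16.5% with centred arrays. This comparison shares its arrays with the ones above. SMAD3 was 1.48 higher on the log2 scale (standard error 0.07, adjusted p = 5.18e-10), INHBA 1.34 (standard error 0.08), TGFBR2 0.88 (standard error 0.09), SMAD2 0.62 (standard error 0.08) and ACVR1B 0.30 (standard error 0.07). These genes were thus still above the level of C. TGFBR1 and TGFBR3 were below it, at -0.69 (standard error 0.07, adjusted p = 5.00e-07) and -0.46 (standard error 0.07, adjusted p = 6.56e-05). SMAD4 differed from C by -0.02 (standard error 0.06, adjusted p = 0.81), TGFB1 by -0.15 (adjusted p = 0.54) and TGFB2 by -0.76 (adjusted p = 0.065). Centring arrays on their medians lowered each of these differences by 0.51, which left SMAD3, INHBA and TGFBR2 higher, put ACVR1B at -0.21 and SMAD2 at 0.11 without a call, and brought TGFB1, TGFB2 and SMAD4 below C with a call, at -0.66, -1.26 and -0.53.

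**Figure D2:**
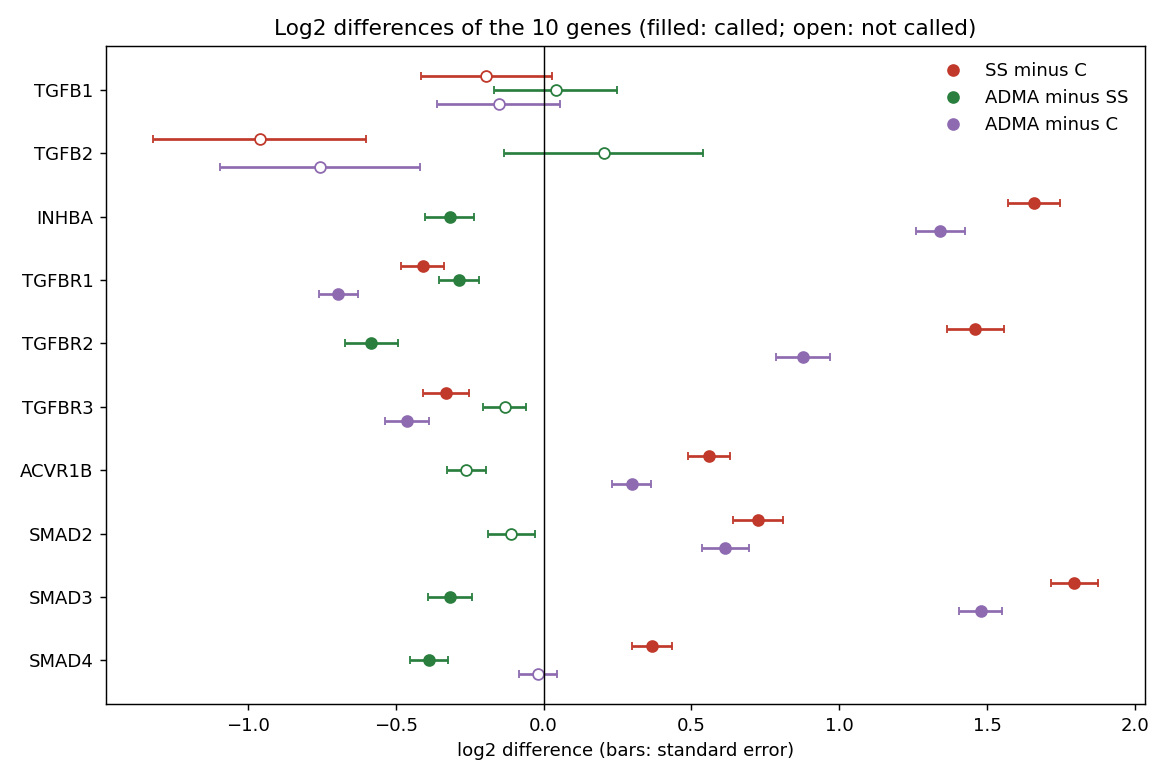
Log2 difference (horizontal axis) of each of the 10 genes in 3 comparisons, SS minus C (red), ADMA minus SS (green) and ADMA minus C (purple), with the standard error from limma as a bar. Filled points passed the test and open points did not. SMAD3, INHBA and TGFBR2 have the largest red values, at 1.80, 1.66 and 1.46, and each has a green value below 0.

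SMAD3 had the widest range of group means among the 10 genes. The genes whose log2 signals correlated most with it over the 10 arrays were MEGF6 (Pearson's r = 0.998), which encodes a protein with EGF-like repeats, LIF (0.997), a cytokine of the interleukin 6 family, and LPXN (0.997), a focal adhesion protein related to paxillin. The arrays fall into 3 groups, and 974 of the 12344 genes had r above 0.95, so a high r is common here.

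The sequences around the start sites of INHBA, TGFBR2 and SMAD3, the 3 genes that rose most in SS, are shown because these genes moved together while their promoters differ in composition. They run 5′ to 3′ on the gene's strand and cover 250 bases before and 50 bases from the start that RefSeq annotates on GRCh38.p14. INHBA is at chr7:41703041-41703340 on the minus strand, TGFBR2 at chr3:30606106-30606405 on the plus strand and SMAD3 at chr15:67065352-67065651 on the plus strand. Capitals mark the SMAD box CAGAC or its complement GTCTG, and the TATA box TATAAA.
INHBA: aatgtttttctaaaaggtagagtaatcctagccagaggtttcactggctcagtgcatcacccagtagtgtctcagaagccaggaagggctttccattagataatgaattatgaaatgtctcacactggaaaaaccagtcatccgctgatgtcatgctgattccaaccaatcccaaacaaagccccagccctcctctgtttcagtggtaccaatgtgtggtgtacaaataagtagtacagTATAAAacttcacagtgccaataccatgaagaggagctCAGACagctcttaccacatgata
TGFBR2: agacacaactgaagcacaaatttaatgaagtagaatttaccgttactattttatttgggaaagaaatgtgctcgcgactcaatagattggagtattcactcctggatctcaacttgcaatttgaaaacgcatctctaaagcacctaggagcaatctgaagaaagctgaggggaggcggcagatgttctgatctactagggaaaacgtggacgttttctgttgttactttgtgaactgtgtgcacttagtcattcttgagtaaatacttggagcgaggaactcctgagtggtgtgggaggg
SMAD3: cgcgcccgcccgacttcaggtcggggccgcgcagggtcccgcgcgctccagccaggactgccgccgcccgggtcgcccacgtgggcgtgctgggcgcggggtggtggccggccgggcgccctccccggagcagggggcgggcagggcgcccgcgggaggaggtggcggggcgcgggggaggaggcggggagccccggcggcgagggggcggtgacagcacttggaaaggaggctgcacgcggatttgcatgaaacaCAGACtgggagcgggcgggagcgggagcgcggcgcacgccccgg

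The G and C content was 43.3% for INHBA, 42.3% for TGFBR2 and 80.3% for SMAD3. SMAD3 held a SMAD box whose first base lay 6 bases after the start, and INHBA held one 27 bases after it and a TATA box 11 bases before it. TGFBR2 held neither. All 10 genes had a promoter in the RefSeq table, and on either strand 4 of them held CAGAC, against 45.3% of 35116 promoters of the same length, 2 held TATAAA (11.5%), 6 held the SP1 box GGGCGG (45%) and none held the AP-1 motif TGANTCA (7.71%). No match overlapped one of another motif. These are matches of letters and not binding sites.

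Each of the 10 genes had 2 to 6 probe sets, and 27 of the 38 reached the filter level. In a fit over all 27307 probe sets at that level, 15 of these 27 were called higher and 2 lower in SS than in C. Of all probe sets, 52.7% changed in either direction. The 15 include 236561_at of TGFBR1, with C under background, and 207334_s_at of TGFBR2. Both passed the filter only through SS and ADMA, where they were high, so the filter favoured their calls. All 4 of SMAD3 rose, by 0.97 to 1.80, both of INHBA by 1.62 and 1.66, and both of TGFBR2 by 1.11 and 1.46. For SMAD3 and INHBA the direction did not hang on the choice of probe set. For TGFBR2, the second probe set, 207334_s_at, had C signals of 66.4, 61.0 and 81.2, with 1 of them under background. As the filter favoured its rise, it adds no independent support. The 5 of SMAD2 had differences of 0.26 to 0.73, and 2 of them were called. Centring arrays on their medians lowers every difference between SS and C by 0.39, which is more than the smallest of these.

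TGFBR1 and SMAD4 gave mixed values. For TGFBR1 the brightest probe set fell and 206943_at was at -0.23 (adjusted p = 0.34), while 236561_at had signals of 229, 168 and 201 in SS and 8.32, 24.6 and 7.46 in C, with all C arrays under the background level. This probe set reached the filter level through SS and ADMA alone, so its difference is given as a bound, with no test. With C taken at background the signal was at least 4.18-fold higher in SS. It had 214, 201, 200 and 174 with ADMA, at least 4.16-fold above C, and a difference of -0.01 from SS. For SMAD4 the brightest probe set rose by 0.37, 235725_at by 1.22 (standard error 0.13) and 1565703_at by 2.64 (standard error 0.17), and 202526_at had -0.27 (adjusted p = 0.27). The signals of 1565703_at were 435, 496 and 602 in SS and 95.5, 68.5 and 81.2 in C. The annotation ties these probe sets to a gene and not to an exon, so which part of the transcript each one measures is not known here.

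With ADMA relative to SS, 6 of the 27 probe sets fell and none rose, where 22.7% of all probe sets changed. The 6 were the brightest ones of INHBA, TGFBR1, TGFBR2, SMAD3 and SMAD4, and 203077_s_at of SMAD2, at -0.54 (standard error 0.09, adjusted p = 0.00031). The second probe set of TGFBR2 was at 0.17 (adjusted p = 0.61) and that of INHBA at 0.03 (adjusted p = 0.89). For SMAD3 the others lay between -0.13 and 0.19. When the probe sets of a gene were averaged, none of the 5 falls was called. Relative to C, 14 of the 27 were called higher with ADMA and 2 lower, where 47.1% of all probe sets changed. The 14 include 236561_at and 207334_s_at, whose calls the filter favoured here too.

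**Figure D3:**
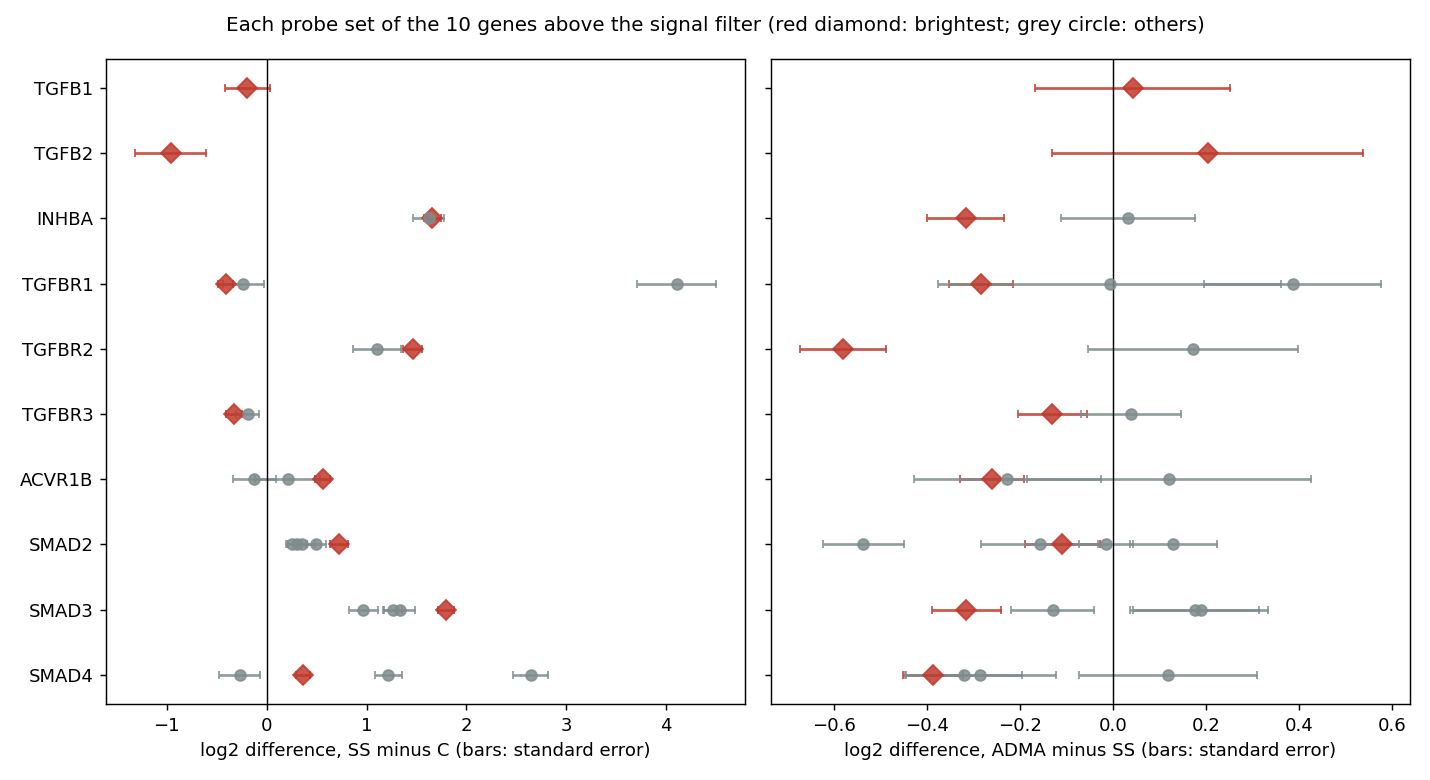
Log2 difference (horizontal axis) of the 27 probe sets of the 10 genes above the filter, SS minus C on the left and ADMA minus SS on the right, with the standard error from limma as a bar. The brightest probe set of each gene is a red diamond and the others are grey circles. On the left, SMAD3, INHBA and TGFBR2 lie to the right of 0 throughout, though the grey circle of TGFBR2 passed the filter only through SS and ADMA. The point of TGFBR1 at 4.10 is set against C signals that were all under the background level, so that only its bound of at least 4.18-fold is measured. On the right the grey circles of TGFBR2 and INHBA lie above 0.

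Genes around the core were taken from lists by role, of which those with a probe set above the filter are counted. Each count is to be read beside the shares over all genes tested. In SS relative to C 30.3% rose and 27.3% fell, and with ADMA relative to SS 15.7% rose and 13.8% fell. Of 14 genes for other ligands and for proteins that hold or release them, 7 rose and 2 fell in SS, with a median difference of 0.49 against 0.07 over all genes. FST, follistatin, which binds and blocks activin, rose by 2.75 (standard error 0.13, adjusted p = 1.16e-10), or 6.73-fold. ITGB8, an integrin subunit that releases latent TGF-beta, rose by 2.24 (standard error 0.31). INHA, the inhibin subunit that antagonizes activin, rose by 1.03 (standard error 0.31, adjusted p = 0.0079). The call for INHA was lost without C replicate 1 or 2 or any 1 SS array (adjusted p = 0.010 to 0.040), and 1 of the 3 C arrays lay under the background level. In C its mean was under the filter level. INHA, counted among the 7, passed the filter only through SS and ADMA, where it was high, so the filter favoured its call. Without any 1 C array or without SS replicate 2, only 1 gene of this list was called lower in SS, since the call for LTBP1 was lost.

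With ADMA relative to SS, 2 of the 14 genes of the ligand list rose and 3 fell, near the 15.7% and 13.8% over all genes. FST fell by 0.89 (standard error 0.12, adjusted p = 3.39e-05). ITGB8 fell by 1.10 (standard error 0.29, adjusted p = 0.0063), a call lost without SS replicate 1 or 2 or ADMA replicate 2 or 4 (adjusted p = 0.012 to 0.035), and without SS replicate 1 only 1 gene of the list was called lower. LTBP1, which stores latent TGF-beta in the matrix, rose by 0.62 (standard error 0.07, adjusted p = 1.38e-05). Both INHBA and its blocker FST were thus higher in SS than in C. The brightest probe set of each was lower with ADMA than in SS. For INHBA that difference was -0.32, its call was lost without some single arrays, and its second probe set was at 0.03 (limma adjusted p = 0.89).

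Of the 6 further receptors and co-receptors, 4 rose in SS and none fell, with a median of 0.96. CD109, a membrane co-receptor that dampens TGF-beta signalling, rose by 1.52 (standard error 0.08, adjusted p = 5.23e-10), BAMBI, a receptor without a kinase domain, by 1.49 (standard error 0.07), and ACVR1, a type I receptor shared with BMPs, by 1.01 (standard error 0.09). With ADMA 2 of the 6 fell relative to SS, ACVR1, at -0.93 (standard error 0.08, adjusted p = 9.86e-07), and the activin type II receptor ACVR2B, at -0.66 (standard error 0.13). CD109 and BAMBI differed by 0.04 and -0.08 and were not called.

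Of 21 regulators of the SMADs, 12 rose and 3 fell in SS, where 30.3% and 27.3% of all genes did, with a median of 0.56. SMURF1, a ubiquitin ligase that degrades SMADs and their receptors, rose by 1.61 (standard error 0.10, adjusted p = 1.92e-09), and PMEPA1, which keeps SMAD2 and SMAD3 from the receptor, by 1.39 (standard error 0.12). The corepressor TGIF2 fell, at -1.10 (standard error 0.13). The inhibitory SMAD7, a feedback gene of the pathway named after its value was seen, rose by 0.81 (standard error 0.10). With ADMA, 3 of the 21 rose and 9 fell relative to SS, with a median of -0.20. PMEPA1 fell, at -0.83 (standard error 0.11, adjusted p = 2.96e-05), the coactivator CREBBP fell, at -0.66 (standard error 0.08), and TGIF2 rose by 0.76 (standard error 0.12). SMAD7 was at -0.17 (adjusted p = 0.17).

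Of 15 genes that TGF-beta can induce, 9 rose and 1 fell in SS. Their median difference was 1.03, the value of FN1, which was not called and had 1 of 3 C arrays under the background level. The median was 0.51 where signals under that level were taken at it, with the same counts of 9 and 1, and 0.65 with quantile normalization and 0.64 with centred arrays. CDKN2B, which encodes the cyclin-dependent kinase inhibitor p15 and is a direct SMAD target in epithelium, rose by 4.26 (standard error 0.10, adjusted p = 3.99e-13), at a mean log2 signal of 11.70 ± 0.08 in SS and 7.44 ± 0.14 in C (SD, n = 3 each). CCN2, connective tissue growth factor, rose by 2.11 (standard error 0.40), and the basic helix-loop-helix repressor BHLHE40 by 1.87 (standard error 0.09). With ADMA 5 of the 15 fell relative to SS and 3 rose. CCN2 fell, at -2.72 (standard error 0.38, adjusted p = 5.29e-05), with 1 of the 4 ADMA arrays under its background level and -2.59 where that signal was taken at the level. CDKN1A, the kinase inhibitor p21 and also a p53 target, fell, at -1.16 (standard error 0.08), and FN1, the matrix protein fibronectin, rose by 2.29 (standard error 0.36, adjusted p = 0.00014). The mean log2 signal of FN1 was 8.85 with ADMA, 6.56 in SS and 5.54 in C. It reached the filter only through its ADMA arrays, where it was high, so the filter favoured this call. Genes of this list moved both ways with ADMA also with FN1 left out, and each of them also responds to other signals.

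Of 5 genes that TGF-beta represses in epithelial cells, all fell in SS, with a median of -2.18. ID3, an inhibitor of basic helix-loop-helix factors, fell, at -4.39 (standard error 0.13, adjusted p = 1.51e-12), the cell cycle phosphatase CDC25A at -2.72 (standard error 0.38) and ID2 at -2.18 (standard error 0.07). With ADMA 4 of the 5 rose relative to SS, ID3 by 3.08 (standard error 0.12), ID1 by 2.41 (standard error 0.06) and ID2 by 1.87 (standard error 0.06). CDC25A was at 1.01 (adjusted p = 0.033), and without SS replicate 1 at 1.37 (adjusted p = 0.0094). ID genes are also targets of BMPs. Of 5 genes of the TAK1 arm, which TGF-beta receptors can engage without SMADs, 3 rose in SS and none fell: the adaptors TAB3 by 1.25 (standard error 0.10) and TAB2 by 0.55 (standard error 0.08), and the kinase MAP3K7 by 0.65 (standard error 0.08). TAB2 and TAB3 fell with ADMA, at -0.60 (standard error 0.07) and -0.55 (standard error 0.10).

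With arrays centred on their medians, the counts of higher and lower genes in SS were 3 and 3 in the ligand list, 3 and none among receptors, 8 and 4 among SMAD regulators, 6 and 2 among induced genes, none and 5 among repressed genes and 1 and none in the TAK1 arm. With ADMA relative to SS they were 1 and 3, none and 2, 1 and 10, 2 and 5, 4 and none, and none and 2. Over all 12344 genes, centring gave 2014 higher and 5184 lower in SS, and 901 and 2095 with ADMA relative to SS.

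**Figure D4:**
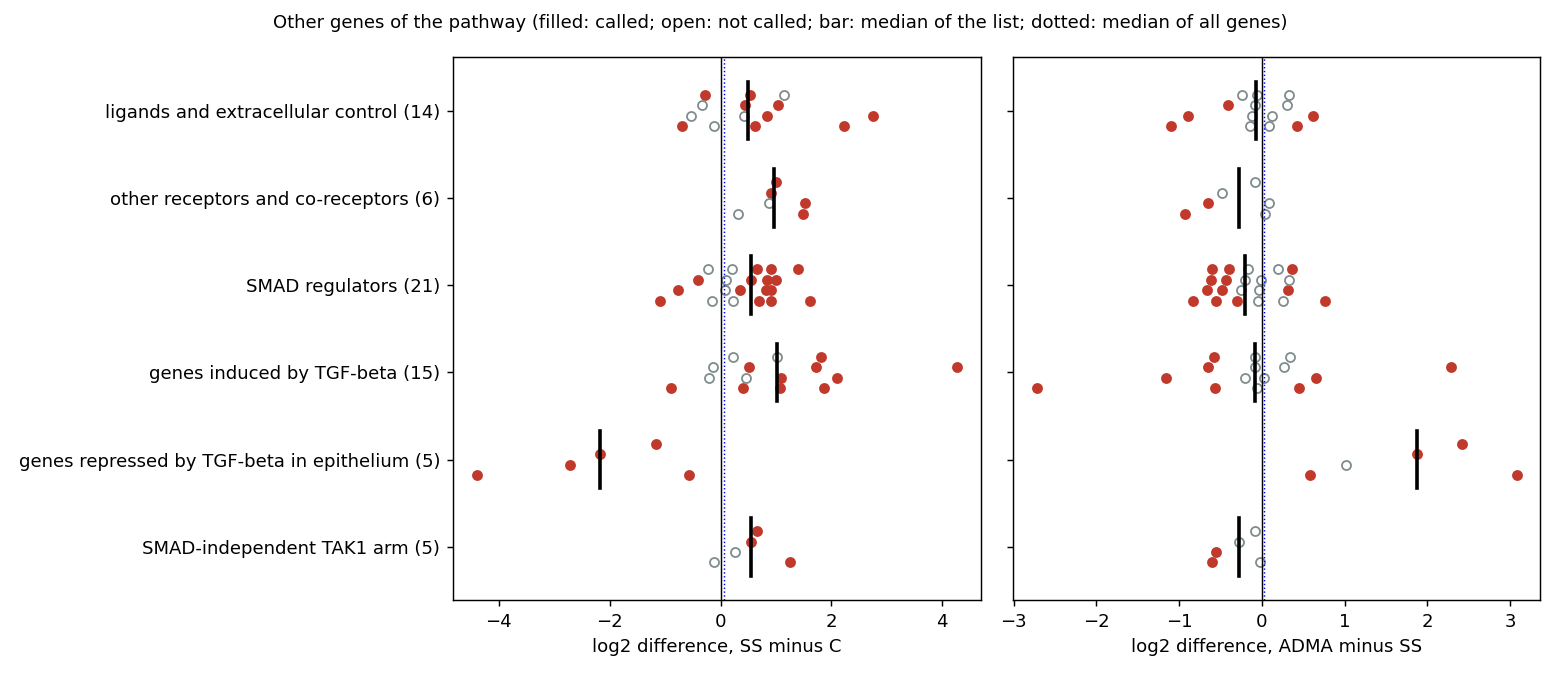
Log2 difference (horizontal axis) of the tested genes in 6 lists around the pathway, SS minus C on the left and ADMA minus SS on the right, with 1 point per gene, filled where it passed the test, a black bar at the median of each list and a dotted line at the median of all genes. The number of tested genes is in brackets. The median of the repressed genes lies at -2.18 on the left and 1.87 on the right, and the other medians lie between 0.49 and 1.03 on the left (the 1.03 of the induced genes is 0.51 with a floor at the background level) and between -0.28 and -0.07 on the right.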

How the data were processed

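RNA of LoVo cells was labelled with biotin and hybridized to Affymetrix HG-U133 Plus 2.0 arrays. The authors made the deposited intensities with MAS 5.0, 1 linear signal per probe set, scaled so that the trimmed mean (2% at each end) is equal on all 10 arrays. The version of MAS 5.0 and any scan batch are not given in the sources used here. Here log2 was taken with no pseudocount. Of 54675 probe sets, 62 are controls, and genes were named from the 41091 with 1 symbol. A single linear model of the 3 groups over the 10 arrays was fitted with limma (version 3.58.1, R version 4.3.3), whose variance prior followed mean intensity. The thresholds, 1.2-fold and an adjusted p of 0.01, are those the methods give for their SAM analysis, which was not run. Tested on simulated data for SS against C, over 12344 genes, the model found 44% of genes simulated with a log2 change of 0.5, 70% at 1 and 96% at 2, and made 1 false call. For ADMA against SS the shares were 50, 84 and 96%. In each simulation only 50, 100 and 50 genes were changed at these 3 sizes. In the data 30.3% of genes rose and 27.3% fell in SS against C. With so few changed genes the adjusted p is stricter, so these shares and false calls do not describe the test on the data. Members and lists were chosen with earlier results of these data known. Named list genes are the 3 called genes with the largest difference per list and comparison. Genes of the lists with no probe set of their own in the annotation are not analysed here. Promoters came from RefSeq (GRCh38.p14). Figures were drawn with matplotlib 3.10.9. Alternatives were other scalings, filters, a pseudocount, a background floor, means of probe sets, other limma settings, blocking on the replicate number, leaving out single arrays, and the fit over probe sets, which was chosen after seeing the data.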

Additional observations from a re-analysis of the deposited data

Results flagged for a closer look

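Among the 4 ADMA arrays, TGFB2 had a signal of 46.4 on replicate 1, far below the 101 to 115 of the other arrays. The gap was 0.865 of the whole range on the log2 scale, above Dixon's 95% limit for 4 samples. The ADMA arrays of the 10 genes were tested in this way, and TGFB2 alone passed the limit. Chance flags about 1 group in 20. The SS and C groups, with 3 arrays each, were not tested. The signal lay under the background level of that array, and without it TGFB2 was still not called against SS or C.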

How the results depend on the processing

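The call of INHBA, TGFBR2 and SMAD3 as higher in SS than in C and with ADMA than in C held under every alternative run. In SS against C, 8 of the 10 genes were called, 6 higher and 2 lower, and leaving out 1 array gave 7 to 8 in all, 6 higher and 1 to 2 lower. Centring arrays on their medians gave 3 higher and put SMAD4 at -0.0220, and averaging a gene's probe sets gave 0 lower, with TGFB1 at 0.0148 and TGFBR1 at 1.15. TGFB1 was at -0.37 to 0.14 without 1 array, highest without SS replicate 1. In ADMA against SS, 5 were called, all lower, and 2 to 5 without 1 array. There were 3 without the intensity trend, 3 with the replicate block and 1 (SMAD2) with the mean of probe sets, where TGFBR1 was at 0.0308 and ACVR1B at 0.0174. TGFB1 was at -0.0752 with centred arrays and -0.29 to 0.22 without 1 array, below 0 without SS replicate 1 (-0.29) or ADMA replicate 3 (-0.0785). In ADMA against C, 7 were called, 5 higher and 2 lower, also without any 1 array. Centred arrays gave 3 higher and 5 lower, with ACVR1B at -0.21, and the mean of probe sets gave 1 lower, with TGFB1 at 0.0609, TGFBR1 at 1.18 and SMAD4 at 1.12. SMAD4 was at 0.0725 with quantile normalization and -0.0661 to 0.00842 without 1 array, above 0 without C replicate 3 (0.00439) or ADMA replicate 3. The cause of these shifts was not tested, apart from centring, which moves every gene by the same amount, and means of probe sets. Those include probe sets under the background level, for TGFB1 203084_at on all 10 arrays, and for TGFBR1 236561_at and for SMAD4 1565702_at on all C arrays, so the averaged values of these 3 genes against C are not measured sizes. For SMAD2 they include 239271_at, at -1.48 in ADMA against SS and under background on all 4 ADMA arrays. For ACVR1B they include 208219_at and 208222_at, under background on all 10 arrays. The averaged SMAD2 call and ACVR1B value against SS are thus not measured sizes either.

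The replicate numbers did not pair the arrays: the 9 same-numbered pairs had correlations of -0.07 to 0.10, other pairs -0.11 to 0.14, and 3 of 10 arrays correlated best with an array of their own number. With the number as a block, 8, 3 and 7 genes were called in SS against C, ADMA against SS and ADMA against C, and ADMA replicate 4 carried no weight, being alone in its block. Of 554 single-gene values under an alternative, 500 kept direction and call. TGFB2 gave no value with the 75th percentile filter. Over all genes, centring gave 2014 higher and 5184 lower in SS against C, where the signals as deposited gave 3738 and 3372, 901 and 2095 in ADMA against SS (1935 and 1704), and 1209 and 6101 in ADMA against C (3284 and 2859). Signal over background limits TGFB2, which had 1 array under it.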

Other observations

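The lists around the pathway were also counted in ADMA-treated cells against control cells, a comparison that shares its arrays with those above. Over all genes tested, 26.6% were higher and 23.2% lower with ADMA than in C. Of the 15 genes that TGF-beta can induce, 10 were higher and 1 lower with ADMA than in C, and of the 14 for ligands and their extracellular control, 7 were higher and 1 lower. The 10 include FN1 and the 7 include INHA. In C the mean of each was under the filter level, with 1 C array under background. FN1 passed the filter only through ADMA and INHA only through SS and ADMA, so the filter favoured these calls. Among the 21 SMAD regulators 9 were higher and 2 lower, among the 6 further receptors 2 were higher and 0 lower, among the 5 repressed genes 1 was higher and 3 were lower, and in the TAK1 arm 2 of 5 were higher. With arrays centred on their medians the counts of higher and lower genes were 5 and 3 among induced genes, 2 and 3 in the ligand list, 1 and 8 among SMAD regulators, 2 and 1 among receptors, 1 and 4 among repressed genes, and 0 and 3 in the TAK1 arm. Over all 12344 genes they were then 1209 and 6101. CD109 and BAMBI, which dampen TGF-beta signalling, had log2 differences from C of 1.56 (standard error 0.08) and 1.41 (standard error 0.06) with ADMA. SMAD7, the inhibitory SMAD, was 0.64 above C on the log2 scale (standard error 0.10).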
